A study of Mus musculus with 2 samples.

Results

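The binding sites described here are the very strong end of the IRF4 map in CH12.LX, an immortalized mouse B-cell lymphoma line of strain B10.H-2aH-4bp/Wts. They are the 668 peaks of the authors' optimal list with a signal of 250 or more on chromosomes 1 to 19 and X. They make up 1.52% of the 44047 peaks of that list on these chromosomes. The optimal list holds peaks that passed the authors' reproducibility threshold, and it is less strict than their conservative list. Chromatin bound by IRF4 was precipitated with an antibody to IRF4 and sequenced in 2 biological replicates that form 1 group, and the labels give no treatment and no comparison group. Nothing in the labels says that the replicates came from separate cultures, and a control experiment named there was not used here. The members were chosen by the signal, the peak caller's own value for each peak from both replicates pooled, on a scale that is not stated, so the signals, widths and replicate values below are a description and were not tested. Binding data hold no expression values, so the B-cell identity of the line was not checked against marker transcripts, and a peak near a gene does not show that IRF4 acts on that gene.

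IRF4 is a transcription factor of lymphocytes that is required for germinal centre B cells and plasma cells. It binds DNA weakly alone and strongly beside a partner. With the ETS factors PU.1 or Spi-B it binds ETS-IRF composite elements (EICE), with BATF and JUN proteins it binds AP-1-IRF composite elements (AICE), and at high amounts it can bind the interferon-stimulated response element (ISRE), which holds a pair of IRF sites.

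The DNA under the strongest sites is shown first, with any matches to such elements marked. The genome sequence in use was mm9, while the optimal list is on mm10, so members were followed into the authors' mm9 peak list by gene: an mm9 peak stood for a member when the same gene had the nearest start and the distances from that start differed by at most 500 bp. By this rule 415 of the 668 members (62.1%) had an mm9 counterpart, 290 of them with distances within 50 bp of each other. The windows below run 50 bp to each side of the summit, which is the position of highest signal, of 12 of the strongest counterparts. They are on the plus strand of mm9, 5′ to 3′, and capitals mark EICE (GGAANNGAAA), EICE-like (AGAANNGAAA), ISRE (GAAANNGAAA), adjoining AICE (GAAATGANTCA), gapped AICE (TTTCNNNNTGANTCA), AP-1 (TGANTCA) and PU.1 (AGGAAGT) matches on either strand.
Grap, chr11:61458183-61458283: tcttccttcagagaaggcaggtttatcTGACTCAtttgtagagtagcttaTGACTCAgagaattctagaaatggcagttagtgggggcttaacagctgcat
Lrriq3, chr3:154898580-154898680: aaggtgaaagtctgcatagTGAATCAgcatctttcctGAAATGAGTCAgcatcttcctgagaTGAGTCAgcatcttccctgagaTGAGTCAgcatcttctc
Gpr15, chr16:58697051-58697151: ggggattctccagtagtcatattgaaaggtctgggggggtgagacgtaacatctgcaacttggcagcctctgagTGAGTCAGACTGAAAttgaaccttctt
Rab37, chr11:114968094-114968194: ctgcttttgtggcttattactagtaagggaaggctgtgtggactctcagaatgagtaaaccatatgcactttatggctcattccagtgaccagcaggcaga
Nfkb1, chr3:135291923-135292023: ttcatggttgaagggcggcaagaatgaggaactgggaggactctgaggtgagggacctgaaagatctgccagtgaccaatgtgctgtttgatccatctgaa
Vps8, chr16:21630784-21630884: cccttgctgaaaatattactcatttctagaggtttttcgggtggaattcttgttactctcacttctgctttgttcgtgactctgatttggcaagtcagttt
Tbc1d10a, chr11:4095787-4095887: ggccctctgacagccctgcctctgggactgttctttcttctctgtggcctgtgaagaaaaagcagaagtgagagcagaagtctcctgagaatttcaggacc
Ptger3, chr3:157298804-157298904: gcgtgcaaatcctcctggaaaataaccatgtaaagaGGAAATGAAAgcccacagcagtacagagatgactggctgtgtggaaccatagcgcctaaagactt
Ppa2, chr3:132995381-132995481: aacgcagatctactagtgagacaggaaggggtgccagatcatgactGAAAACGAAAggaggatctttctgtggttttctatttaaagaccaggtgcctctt
Snx29, chr16:11386016-11386116: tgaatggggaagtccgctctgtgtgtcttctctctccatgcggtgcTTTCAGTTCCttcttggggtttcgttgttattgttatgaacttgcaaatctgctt
Tprg, chr16:25485203-25485303: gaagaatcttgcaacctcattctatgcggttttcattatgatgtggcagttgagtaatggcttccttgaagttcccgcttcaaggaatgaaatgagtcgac
Muc13 and Heg1, chr16:33745698-33745798: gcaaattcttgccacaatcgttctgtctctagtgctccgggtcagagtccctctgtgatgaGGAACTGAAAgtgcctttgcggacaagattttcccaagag

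These 12 windows did not share 1 element. The Ptger3, Snx29 and Muc13 windows each held an EICE. The Lrriq3 window held an adjoining AICE among 4 AP-1 matches, and the Gpr15 window held a gapped AICE whose AP-1 part is counted too. The Grap window, at the highest peak of the whole mm9 list with a signal of 1743, held 2 AP-1 matches. The Ppa2 window held an ISRE. The Rab37, Nfkb1, Vps8, Tbc1d10a and Tprg windows held none of the 7 motifs, which says only that these letters were not in those windows. The distances from the gene start differed between builds by 0 bp at Snx29, and the counterparts at Nfkb1 (62962 bp on mm10, 62538 bp on mm9) and Gpr15 (21897 and 21736 bp) fitted less closely than the others. The counterpart of the Rasgrp3 member ranked 9509 on mm9, so that pair may join different sites and is not shown. The counterpart at Malt1, which also ranked among the strongest, is left out.

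The motif counts over the mm9 list gave the same picture of several elements. The 668 strongest of its 27671 peaks on the same chromosomes, with signals of 435.1 or more, were compared with the 27003 weaker peaks by the share of 101-base windows holding each motif. EICE was in 24.7% of the strongest windows (95% Wilson interval 21.6 to 28.1) and 8.28% of the others, an odds ratio of 3.63 (3.03 to 4.36, adjusted p = 3.6e-35, 2-sided Fisher's exact test with Benjamini-Hochberg adjustment over the 7 motifs). EICE-like was in 9.43% against 4.92% (odds ratio 2.01, 1.54 to 2.63, adjusted p = 3.2e-06 by the same exact test). The EICE-like form was taken from the leading word of an earlier analysis, so its p-value adds no independent support. Peaks are not biological replicates, so these tests cover the counting of peaks within 1 list.

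The 2 AICE forms were also more frequent at the strongest peaks. Gapped AICE was in 5.54% of the strongest windows against 1.01% of the others (odds ratio 5.76, 4.05 to 8.20, adjusted p = 2.8e-15, Fisher's exact test). Adjoining AICE was in 4.19% against 1.05% (4.12, 2.77 to 6.12, adjusted p = 5.5e-09, Fisher's exact test). The plain AP-1 match, which both AICE forms contain, was in 31.7% against 15.7% (2.51, 2.12 to 2.96, adjusted p = 7.3e-24, Fisher's exact test). By contrast, ISRE did not differ detectably, at 5.54% against 5.80% (0.95, 0.68 to 1.33, adjusted p = 0.87, Fisher's exact test). The ETS site AGGAAGT was counted also where it formed the ETS part of an EICE. It was in 12.4% against 10.2%, which missed the threshold of 0.05 (odds ratio 1.25, 0.99 to 1.58, adjusted p = 0.071, Fisher's exact test). With the strongest 1336 or 334 peaks in place of 668 it passed, at odds ratios of 1.33 and 1.45. In windows of the same length 300 bp to one side of the strongest summits the shares were 1.35% for EICE, 2.69% for AP-1 and 0% for adjoining AICE.

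**Figure D1:**
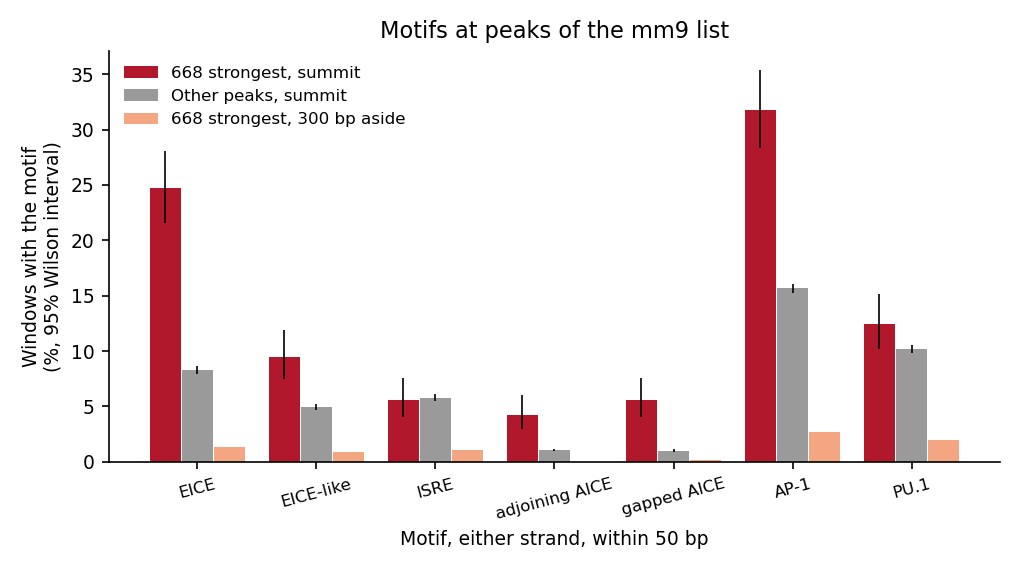
Share of 101-base windows holding each motif (vertical axis, percent) at the summits of the 668 strongest mm9 peaks (dark red) and of the other 27003 (grey), with 95% Wilson intervals, and 300 bp aside from the strongest summits (light). The dark red bar is 24.7% for EICE against 8.28% in grey, and the pair of ISRE bars stands at 5.54% and 5.80%.

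At least 1 of EICE, ISRE and the 2 AICE forms was in 251 of the 668 strongest windows (37.6%, 34.0 to 41.3), against 15.5% of the others. At least 1 of the 7 motifs was in 455 (68.1%, 64.5 to 71.5), against 38.6%. The remaining 213 held none. EICE and AP-1 matches met in 19 of the strongest windows. The elements lay close to the summit, with a median distance of 14.5 bp for EICE and 12.5 bp for adjoining AICE.

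CT was the most common pair of bases between the ETS and IRF parts of EICE at the strongest peaks, and GT at the others, a difference that was not tested. Of the 169 EICE matches there, 71 (42.0%, 34.8 to 49.6) had CT between GGAA and GAAA, against 24.1% (22.4 to 25.9) of 2269 matches at the other peaks. GT was between them in 29.6% (23.2 to 36.9) and 32.5% (30.6 to 34.5). The Muc13 window shows the CT form as GGAACTGAAA, and the Snx29 window holds its reverse complement. An unguided count of words of 8 bases was led by AACTGAAA, in 16.8% of the strongest windows against 1.65% of the windows beside them and 6.02% at the other peaks. It was followed by AAGTGAAA (14.8%) and GGAACTGA (14.5%). Among the 213 windows with none of the 7 motifs, the leading word was CTCAGTTC, whose reverse complement is GAACTGAG, in 22 windows (10.3%) against 2.60% of the other peaks without a motif.

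Of the members' own 415 counterparts, 364 were among those 668 strongest mm9 peaks. EICE was in 98 of the 415 windows (23.6%), AP-1 in 124 (29.9%), PU.1 in 58, EICE-like in 34, ISRE in 24, gapped AICE in 18 and adjoining AICE in 11. None of the 7 was in 146 (35.2%). By the mm9 gene models, 208 of the counterpart summits were intergenic, 197 intronic, 7 in untranslated exon and 3 in coding exon. Over the whole mm9 list, introns held 46.7% of the strongest summits and 44.3% of the others, intergenic sequence 51.2% and 48.6%, untranslated exons 1.50% and 5.18%, and coding exons 0.599% and 1.91%. The GC content of the windows 300 bp aside was 45.2% at the strongest peaks and 46.4% at the others.

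In signal the members ran from 250.2 to 480.4 with a median of 294.9, whereas the median of the other 43379 optimal peaks was 41.0. Their number fell quickly with height: 306 peaks reached 300, 105 reached 350, 31 reached 400 and 6 reached 450. The last members inside the threshold were peaks near P4ha2 (250.3), in Prdm9 (250.2) and near Pln (250.2), and the first outside were near Lifr (250 after rounding), Mex3b (249.9) and Mafa (249.8), so the limit falls in a continuous range of signals.

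The strongest peak lay inside Ptger3, the gene of a receptor for prostaglandin E2. It spanned chr3:157635759-157636022 on mm10, 69005 bp downstream of the gene start, and had a signal of 480.4, with 235.7 in replicate 1 and 245.0 in replicate 2. A further member of 345.6 lay in the same gene, 67737 bp downstream of the start. The second peak (469.7, with 214.9 and 251.4 in the replicates) lay inside Zbtb20, a zinc-finger repressor with a known part in plasma cells, at chr16:43383164-43383540. The third (468.7, with 223.8 and 248.7) lay inside Rab37, a small GTPase of secretory vesicles, at chr11:115106671-115106956. Replicate 1 was the lower replicate at all 3 peaks.

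The next peaks lay at genes of several kinds. A peak of 465.2 was inside Ppa2, the mitochondrial inorganic pyrophosphatase, at chr3:133332322-133332592. One of 456.5 was inside Vps8, an endosomal tethering subunit, at chr16:21630622-21630892. Peaks of 450.4 and 448.9 lay 2293 bp downstream of the start of Enpp6, a choline phosphodiesterase, and 3534 bp downstream of that of Recql5, a DNA helicase. One of 446.7 was 113689 bp from Mrpl39, a mitochondrial ribosomal protein gene, outside any gene body. Peaks of 445.2 in Tbc1d10a, a GTPase-activating protein for Rab proteins, and 436.8 in Snx29, a sorting nexin, completed the first 10. Snx29 was the member of these 10 that was higher in replicate 1 (220.6 against 217.1).

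Among ranks 11 to 30 were genes with known parts in B-cell signalling. Rasgrp3, which activates Ras downstream of diacylglycerol, had a peak of 430.5 (184.0 and 245.4 in replicates 1 and 2). Nfkb1, the gene of the NF-κB precursor p105, had 1 of 418.8 in its body (199.7 and 222.9) and a further member of 363.2. Malt1, the paracaspase of antigen-receptor signalling, had a peak of 400.8 lying 48372 bp downstream of its start. Hcls1, a substrate of antigen-receptor kinases that binds actin, had 401.8, and St6gal1, the sialyltransferase that makes the ligand of CD22, also had 401.8. The Ezh2 peak (401.6) lay 26006 bp upstream of the start of this histone H3 methyltransferase gene.

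Others of that range followed. A peak of 422.9 was inside Rad50, a DNA repair gene, and its nearest start was that of the cytokine gene Il13, 22334 bp away. One of 416.4 was inside Rbpj, the DNA-binding partner of Notch, and 1 of the same signal lay 142266 bp from Lrriq3. Peaks of 417.8 near the potassium channel gene Kcnk10, 413.7 inside Ostn, 412.8 near the homing receptor gene Gpr15 and 408.6 near Hdhd5 followed. Then came 404.4 near Kcnip1, 403.5 at 2824 bp upstream of the chemokine gene Ccl6, 402.7 near Adgrl2, 402.3 near Slfn2 and 402.3 near the nucleoporin gene Nup160. A peak of 401.1 lay inside Cd200, the gene of a surface ligand that restrains myeloid cells, with 203.0 and 202.3 in the replicates.

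Every one of the 668 members had a summit within 100 bp in the relaxed list of each replicate (lower Wilson bound of the share 99.4%), against 85.2% of the other optimal peaks. The relaxed lists hold candidate peaks together with background. All 668 were also in the authors' stricter conservative list, which held 71.9% of the others. The members' signals were 89.6 at the lowest, 130.2 at the median and 235.7 at the highest in replicate 1, and 118.4, 164.8 and 251.4 in replicate 2. Replicate 2 was higher at 651 members and replicate 1 at 17. Over members, replicate 2 over replicate 1 was 0.33 on the log2 scale at the median, with an SD of 0.19, and the median over the other matched peaks was 0.54 with an SD of 0.67. The scales of the 2 lists need not be equal, so the common offset says nothing of a single site.

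The order of the peaks was similar but not the same in the replicates. Of the members, 580 ranked within the first 668 of replicate 1, 600 within those of replicate 2 and 515 (77.1%) within both, and the worst ranks were 1226 and 1281. Spearman's rho between the replicate signals over members was 0.63, a value that the choice by pooled signal affects. Gpr55, a lysolipid receptor gene, had the highest ratio (89.6 in replicate 1 and 166.4 in replicate 2, log2 0.89). Cth (0.82), Mob1b (0.80), Gpc6 (0.79) and Zfp362 (0.78) came next. Among the lowest ratios were those at Ctso (159.9 and 132.8, log2 -0.27), Bhlhe40 (-0.16), Il6ra (-0.12) and Gbp3 (-0.12).

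**Figure D2:**
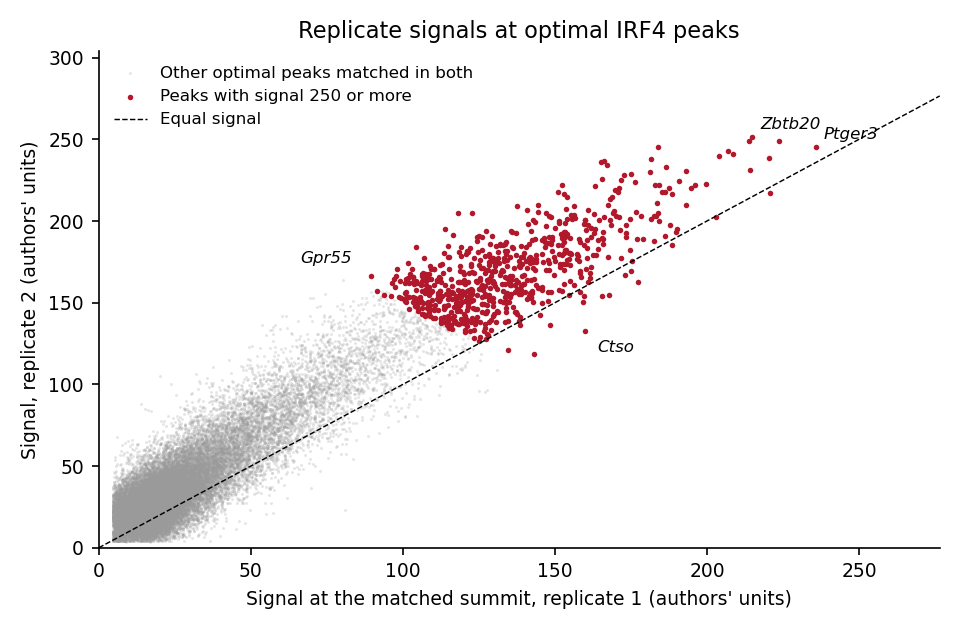
Signal of each optimal peak at its matched summit in replicate 1 (horizontal axis) and replicate 2 (vertical axis), in the authors' units, with members in red, other peaks in grey and the line of equal signal dashed. Of the 668 red points 651 lie above the line, from Gpr55 at 89.6 and 166.4 to Ptger3 at 235.7 and 245.0.

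Members were listed with narrow intervals. Their widths ran from 88 to 532 bp with a median of 219 bp, and 660 of them were narrower than 340 bp. The lower quartile, median and highest width of the other optimal peaks were all 340 bp, and 96.2% had exactly that value. Such a repeated value reads as a set width, not an extent measured at each peak. The widths thus do not show that strong sites are narrower than weak ones. Only 1 member had 340 bp and 7 were wider. Among members, higher peaks were wider (Spearman's rho 0.61 over 668 peaks of 1 list, a description). The narrowest were in Smarca2 (88 bp), in Cyth1 (103 bp) and near Lyn (106 bp), and the widest were in Taok3 (532 bp), in Zbtb20 (377 bp) and in Grk2 near Ankrd13d (376 bp).

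Position relative to genes was not used to choose the members, and it differed clearly from that of the rest of the list. Promoter sites, with a summit at most 1 kb from a protein-coding gene start, made up 28 members (4.19%, 2.92 to 5.99) and 20.2% of the other optimal peaks (odds ratio 0.17, 0.12 to 0.25, adjusted p = 2.9e-32, 2-sided Fisher's exact test with Benjamini-Hochberg adjustment over 5 location measures). From 1 to 10 kb the shares were 22.2% and 21.0%, from 10 to 100 kb they were 56.9% and 45.6%, and beyond 100 kb they were 16.8% and 13.2%. The median distance was 24162 bp for members and 16183 bp for the others. The share inside a gene did not differ detectably, at 52.4% (350 members) against 54.3% (odds ratio 0.93, 0.80 to 1.08, adjusted p = 0.35, Fisher's exact test).

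**Figure D3:**
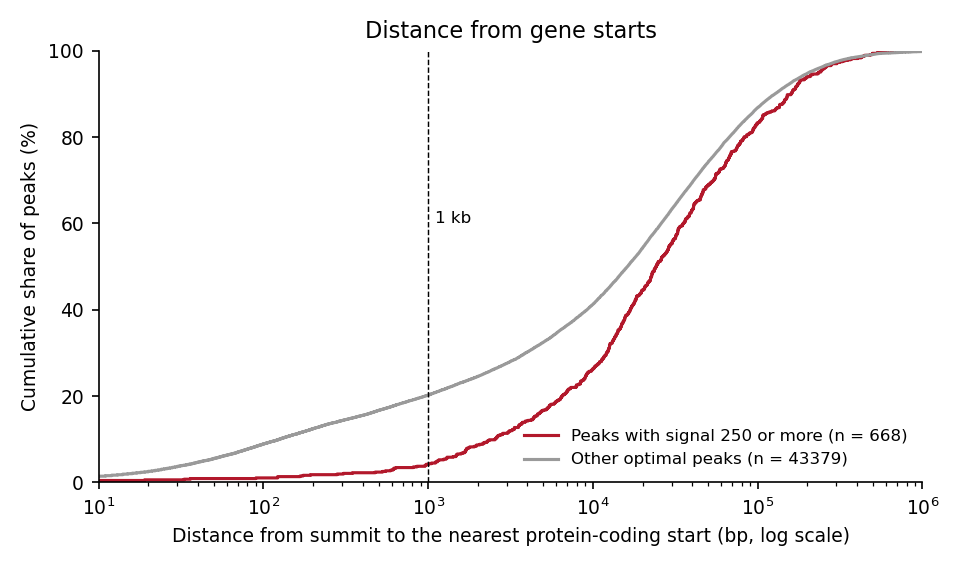
Cumulative share of peaks (vertical axis, percent) by distance from the summit to the nearest protein-coding start (horizontal axis, bp, log scale) for the 668 members in red and the 43379 other optimal peaks in grey, with 1 kb dashed. At 1 kb the red curve stands at 4.19% and the grey curve at 20.2%.

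Where a member lay inside a gene, that gene was usually also the one with the nearest start, in 275 of 350 cases (78.57%). The share was similar for the other optimal peaks inside a gene (80.65%). The host genes were long, with a median of 86768 bp against 68961 bp for the hosts of other peaks and 17329 bp for all protein-coding genes. Of the 148 members between 1 and 10 kb from a start, 93 (62.8%) were downstream and 55 upstream, and 54.9% of the other peaks in that range were downstream. Among the farthest members were those 649330 bp from the start of Pcdh9, 538041 bp from Fancl, 533660 bp from Stpg2 and 497227 bp from Myc.

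The 28 promoter members were led by Cnpy3, a chaperone of Toll-like receptors, with a signal of 388.2 (187.8 and 197.3 in the replicates) at 609 bp downstream of its start. Rap1gap2 followed at 358.5. The interferon-induced guanylate-binding protein genes Gbp7 and Gbp3 had members of 352.6 and 322.9. Dennd4b had 344.8, Wdfy4 344.5, Il16 320.0, Cyth1 310.3, Ppm1m 307.9, the diacylglycerol kinase gene Dgkg 304.0, and Dapp1, an adaptor downstream of the B-cell antigen receptor, 301.3. Ubald2 (301.2), Slc17a5 (293.5), Mgat1 (293.3) and Apcs (292.8) were the next. Socs1, an inhibitor of cytokine signalling, had the weakest promoter member named here, at 255.7 (108.2 and 150.7).

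Sequence on mm10 was at hand for 8 members, through the RefSeq promoter windows of GRCm38.p6, which reach from 250 bases before to 50 after a start. One of them, at the predicted gene Gm32249, is not among the 28, since its nearest protein-coding start is that of Ccr7, 13052 bp away. The Socs1 window around the summit, 90 bp upstream of the start, is given below on the gene's strand (minus) with 2 overlapping ISRE matches in capitals.
Socs1, chr16:10785576-10785676: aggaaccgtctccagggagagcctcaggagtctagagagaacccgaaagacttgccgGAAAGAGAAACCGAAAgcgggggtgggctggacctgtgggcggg

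The other 7 promoter windows held a mix of elements. Around the summit, Gbp7 held an ISRE and an EICE-like match and Irgm1, another interferon-induced GTPase gene, held 2 ISRE matches. The Dapp1 window held an EICE with a PU.1 match, the Cd53 and Tlr9 windows a PU.1 match, the Gm32249 window an EICE-like match, and the Il16 window none. Irgm1, Cd53, Tlr9 and Gm32249 are named because their windows held the summit, a choice made after their values were seen. Over all 32544 RefSeq windows of 300 bases, 3.45% held an ISRE, 2.73% an EICE, 3.04% an EICE-like match, 9.27% a PU.1 match and 7.79% an AP-1 match. With 8 windows no share was compared with these.

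Members more often had company. Another optimal summit between 500 bp and 10 kb away was present for 518 members (77.5%, 74.2 to 80.6) and for 63.5% of the other peaks (odds ratio 1.98, 1.65 to 2.38, adjusted p = 2.9e-14, Fisher's exact test). The median number of such neighbours was 2 for members and 1 for the others, 87 members had 5 or more, and 150 had none. Cyth4 had the most with 12, followed by Dad1 and Ly6e with 11 and Il10 and Stoml1 with 10. The neighbours were much lower, which the choice of members by signal largely fixes. The median ratio of a member to its strongest neighbour was 4.07. In all, 650 members were higher than every summit between 500 bp and 10 kb away, a count that includes the 150 with none. A summit less than 500 bp away was found at 15 members (2.25%) and at 14.3% of the other peaks.

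Some members were neighbours of each other: 36 had another member within 10 kb, 75 within 25 kb and 151 (22.6%) within 100 kb. Members were 1.52% of the list, and no matching share was computed for the other peaks. The counts thus do not show whether members lay closer together or farther apart than other peaks. The Ksr1 members of 301.8 and 301.4 were a pair within 10 kb, in the body of this kinase scaffold gene. At Slc1a2 members of 314.7 and 256.8 lay together inside the gene, and at Ercc6l2 a member of 386.8 stood beside 1 of 269.0.

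The members were unevenly spread over chromosomes. Chromosome 16 carried 65 of them (9.73% against 5.02% of the other peaks, odds ratio 2.04, 1.58 to 2.65, adjusted p = 1.2e-06, Fisher's exact test). Chromosome 11 carried 101 (15.1% against 10.5%, odds ratio 1.52, 1.23 to 1.88, adjusted p = 2.8e-04, Fisher's exact test). Both chromosomes were singled out with earlier results of these data known, so these p-values add no independent support. Of its own peaks, chromosome 16 had 2.90% among the members, chromosome 11 had 2.17%, chromosome 3 had 2.14%, chromosome 19 had 0.982% and chromosome X had 0.168%. The median signal over all optimal peaks of a chromosome was 43.1 on chromosomes 16 and 11, 42.9 on chromosome 3, and 38.0 on X. The lone member on X (280.9) lay 145090 bp downstream of the start of Bcor, a corepressor of BCL6. A stretch of chromosome 16 from 50 to 60 Mb held 13 members among its 252 peaks (5.16%). It is named as the highest share among stretches of that length with several members, so it is the extreme of many. More members, 16 among 500 peaks (3.20%), lay on chromosome 11 from 110 to 120 Mb.

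**Figure D4:**
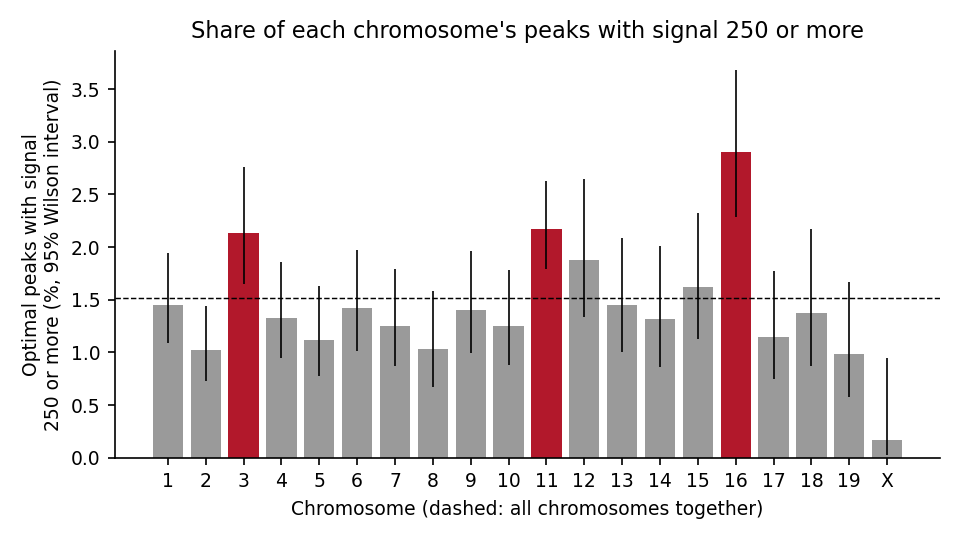
Share of each chromosome's optimal peaks that are members (vertical axis, percent, bars with 95% Wilson intervals), with the share over all chromosomes dashed and chromosomes 3, 11 and 16 in red. Chromosome 16 stands at 2.90% and chromosome X at 0.168%, around an overall 1.52%.

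The members lay inside, or had the nearest start of, 661 protein-coding genes, 3.06% of the 21631 annotated, whereas 60.5% had any optimal peak. Most had 1 member (587 genes), 63 had 2 and 11 had more. The most members were at Myc, the growth-promoting transcription factor gene, which was nearest to 5. They had signals of 312.3, 301.9, 266.6, 261.8 and 253.4 and lay 94224 to 497227 bp downstream of its start. All were outside protein-coding gene bodies, and those of 301.9, 266.6 and 261.8 lay inside the noncoding gene Pvt1. Their replicate 1 signals were between 100.8 and 135.3 and those of replicate 2 between 144.9 and 178.1. Replicate 2 was higher at 651 of all 668 members, so this offset is not particular to the Myc members. Zbtb20 held 4 members (469.7, 352.3, 344.9 and 288.8). Ebf1, a factor that sets B-cell identity, held 4 in its body (322.7, 322.6, 307.8 and 261.7).

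The genes with 3 members were Slfn2, Ube2e3, Vrk2, Rad51b, Gpc6, Slc1a2, Ksr1 and Bhlhe40. Slfn2, which keeps lymphocytes quiescent, had 402.3, 297.7 and 280.7. The kinase gene Vrk2 had 368.2, 366.1 and 251.6, and Ube2e3, an E2 ubiquitin-conjugating enzyme gene, had 391.0, 268.6 and 263.7. Rad51b, a homologous recombination gene, held all of its 3 members in its body. Bhlhe40, a repressor of the basic helix-loop-helix family, held none of its 3 in its body. Genes with 2 members included Ptger3, Rab37, Ppa2, Vps8, Mrpl39, Nfkb1, Adgrl2, Nup160, Klf14, Sik3, Prkca and Tigit.

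Gene groups were counted against the 3.06% of all protein-coding genes that had a member. The lists were chosen with earlier results of these data known, and they differ in gene length, so the counts are a description with the median gene length beside each. Of 30 B-lineage transcription factors 14 had a member (46.7%, median gene length 90708 bp), the highest share of the 12 lists. Besides Ebf1 and Zbtb20 they were Pax5, the factor that maintains B-cell commitment (353.3 and 277.2), Pou2f2 (348.9), Ikzf3 (336.8 and 279.6), Bach2 (324.0), Ikzf2 (311.1), Tcf4 (300.1 and 285.0), Ets1 (279.9), Runx1 (271.0 and 263.8), Foxo1 (271.4 and 258.0), Zbtb32 (260.0), Id2 (252.5) and Foxp1 (252.0). At Bach2, a repressor of plasma-cell fate, the replicates had 122.6 and 204.6, whereas at the stronger Pax5 peak they had 160.2 and 194.7.

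Of 20 genes known as IRF4 targets in B cells 8 had a member (median length 25104 bp). They were Ikzf3, Il10, Pax5, Ebf1, Myc, Batf, Zbtb20 and Bach2. The other 12, which include Irf4 itself, Prdm1, Xbp1, Ikzf1, Spib and Ciita, had optimal peaks of lower signal but none of 250 or more. Il10, an anti-inflammatory cytokine gene, had a member of 326.8 (158.5 and 165.6 in the replicates) 9124 bp upstream of its start with 10 neighbours. Batf, the AP-1 family partner of IRF4, had a member of 297.6 (139.0 and 156.5) 24129 bp downstream of its start. It belongs also to the list of 28 AP-1, MAF and ETS genes, of which 7 had a member (11788 bp), the others being Bach2, Atf3 (299.9), Ets1, Ets2 (255.0), Bach1 (253.8) and Erg (253.7).

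**Figure D5:**
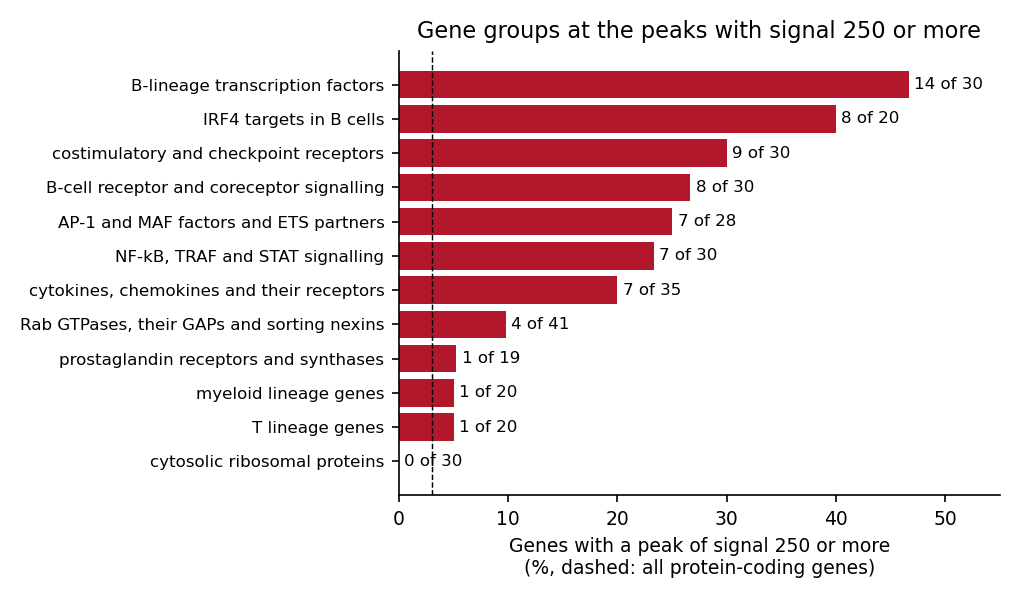
Share of each gene list with a member inside the gene or nearest to its start (horizontal axis, percent), with the number of genes at each bar and the share of all protein-coding genes, 3.06%, dashed. B-lineage transcription factors stand at 46.7% (14 of 30) and cytosolic ribosomal proteins at 0 of 30.

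Of 30 genes of B-cell receptor and coreceptor signalling 8 had a member (26.7%, median length 49044 bp). Besides Rasgrp3 and Malt1 these were the kinase genes Syk (352.9, at 9919 bp upstream of its start) and Lyn (287.5 and 262.0). The phosphatase genes Ptprc (345.7, the gene of CD45) and Inpp5d (253.6), the phospholipase gene Plcg2 (296.5) and the exchange factor gene Vav2 (290.9) completed them. The Ptprc member lay 252196 bp downstream of its start, outside every protein-coding gene. Of 30 costimulatory and checkpoint receptor genes 9 had one (26919 bp). Tigit had 358.5 in its body and was the nearest start, 170342 bp away, to the member of 352.3 counted above inside Zbtb20. Ctla4 had 353.1 within its body, and Cd200, Icosl (279.5), Cd226 (268.6) and Cd274 (267.7) 1 each. The receptors for the B-cell survival factors BAFF and APRIL were all among them: Tnfrsf13c (338.1), Tnfrsf13b (331.7) and Tnfrsf17 (294.2).

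Of 35 cytokine, chemokine and receptor genes 7 had a member (14658 bp). Ccr7, the receptor that guides lymphocytes to lymph nodes, had 335.0 and 306.2. Il21r had 346.5 (160.4 and 183.5), Il6ra 333.1, Il6 299.1 (at 64753 bp upstream of its start), Il2rb 298.2 and Il10ra 263.2. Of 30 genes of NF-κB, TRAF and STAT signalling 7 had a member (23.3%, 24534 bp). Among them were Nfkb1, Nfkbiz (318.7, at 91578 bp downstream of its start), Rel (294.6 and 271.8), Nfkbia (269.6), Socs3 (261.5) and Socs1.

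Other groups were closer to the share of all genes. Of the 41 genes in the list of Rab GTPases, their GAPs and sorting nexins 4 had a member (9.76%, 46165 bp). They were Rab37, Tbc1d10a, Snx29 and Vps8, which were all at the 10 strongest peaks, and of which Vps8 is a tethering subunit and belongs to none of these families. Of 19 prostaglandin receptor and synthase genes (median length 17993 bp) Ptger3 was the one with a member. Among genes of other blood lineages, 1 of 20 T-lineage genes (22290 bp) had a member, Tbx21 (346.5, at 11640 bp upstream of its start). Of 20 myeloid genes (4903 bp) 1 had a member, Csf3r (251.8, with 98.9 and 153.3 in the replicates). None of 30 cytosolic ribosomal protein genes had one, although 25 of them had some optimal peak, and their median length was 3679 bp.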

How the data were processed

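IRF4 ChIP-seq of CH12.LX was taken from 6 deposited peak lists: optimal, conservative, pooled and 1 relaxed list per replicate on mm10, and 1 list on mm9 made from both replicates. Neither an aligner nor a peak caller is given in the sources used here, and read depth is unknown. Each peak's signal value, in the authors' units, was deposited with the list and used as it stands to describe and rank peaks within a list. The authors' deposited score of each peak was 1000 at all members. The deposited pooled and replicate 2 lists have 300000 lines each and that of replicate 1 has 215095.

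The summit was the peak start plus its offset. Gene starts came from RefSeq GRCm38.p6 (20923 of 21631 protein-coding genes had a start), with all starts of the promoter table. The strand came from that table or from the GENCODE gene of the same name. Coordinates were never converted. Motifs were read from the mm9 sequence within 50 bp of the summit. Tests were Fisher's exact tests (scipy 1.17.1), checked on simulated data, with 95% Wilson or odds-ratio intervals over peaks. The odds ratios within deciles of GC content were pooled over the deciles (statsmodels 0.14.6) and were not part of that check. Alternatives were other thresholds, windows, promoter widths, neighbour distances and lists, and each replicate alone.

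The members, gene lists and chromosomes were chosen with earlier results of these data known. The EICE-like motif came from the leading word of an earlier analysis. Genes named are those at the 30 strongest members, genes with 2 or more members, up to 15 promoter members, genes of the lists, and the extremes of distance, width, neighbours and replicate ratio. A few genes that the rule would name are not reported here.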

Additional observations from a re-analysis of the deposited data

How the results depend on the processing

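The replicate ratio moved with the threshold: the median log2 ratio of replicate 2 to replicate 1 was 0.37 for peaks of 200 or more and 0.29 for those of 300 or more, against 0.33 at 250. The PU.1 motif, which missed the threshold at 668 peaks, passed it when the strongest 1336 mm9 peaks were taken (odds ratio 1.33, adjusted p = 0.0012, Fisher's exact test) or the strongest 334 (1.45, adjusted p = 0.027, Fisher's exact test). The other 33 motif settings and all settings run of the 5 location measures kept the side of the threshold. Direction turned only where the main result had not passed: ISRE was at 1.09 with windows of 25 bp and 1.08 with 1336 peaks, and the share inside a gene at 1.11 for signals of 300 or more. With the rank taken from 1 replicate, the odds ratios were 0.16 and 0.20 for promoters, 0.91 and 0.95 for gene bodies, 1.34 and 1.65 for chromosome 11, and 1.81 and 2.24 for chromosome 16. Within deciles of GC content beside the peak the EICE odds ratio was 3.56. No paired analysis was possible because there is 1 group.

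Read numbers are not known, so no error from depth can be given to a single peak. With 2 replicates a peak's spread rests on a pair of values. Motif counts rest on the mm9 list, where 415 of the 668 members had a counterpart. The nearest or host gene is a label of position.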
